A study of Homo sapiens with 6 samples.

Results

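Transcripts of the SLC25 family, the carriers that move metabolites across the inner mitochondrial membrane, were examined in T24 cells treated with ox-LDL (oxidized low-density lipoprotein). T24 is an established cell line of a human bladder cancer. The members were all probe sets whose gene symbol begins with SLC25A and a number, leaving out SLC25A20. They numbered 44 of the 21448 probe sets tested, each standing for 1 gene: 43 carriers and the antisense RNA SLC25A48-AS1. Of 47 carriers placed in substrate groups from general knowledge, 4 were not analysed here. Cells grown with 10% serum were kept without it for 12 h and then treated for 24 h. The ox-LDL group received 20 µg/mL ox-LDL and the vehicle group received vehicle, with 3 samples and 1 array per sample in each group. Both groups were thus serum-deprived cells of the same line. Whether samples within a group came from separate cultures is not said in the labels, and the spread behind each p-value may therefore be technical. In such bulk RNA, fewer cells of a kind and less RNA per cell cannot be told apart.

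Carriers of this family share a fold built from repeated pairs of membrane-spanning helices, and most work by exchanging one metabolite for another. They connect the matrix, where the citric acid cycle, respiration, iron-sulphur cluster assembly and haem synthesis take place, with the cytosol. In proliferating tumour cells they are known for supplying ADP to ATP synthase, exporting citrate and aspartate for biosynthesis and shuttling reducing equivalents of NADH into mitochondria.

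The labels held 1 contradiction and the arrays 1 that stood apart. A free-text field speaks of control and G9a siRNA, whereas titles, sources and treatments name vehicle and ox-LDL, and groups follow the titles. EHMT2, which encodes G9a, averaged 8.22 ± 0.14 with ox-LDL and 7.85 ± 0.19 in vehicle on the log2 scale (SD, n = 3 each; limma adjusted p = 0.125). ABCA1, a sterol exporter whose transcription is known to respond to sterol loading, averaged 8.34 ± 0.07 with ox-LDL and 6.17 ± 0.09 in vehicle, a rise of 2.17 (SD, n = 3 each; limma adjusted p = 0.000159). Vehicle replicate 3 correlated with the other arrays at 0.979 to 0.988 across probe sets, against 0.992 to 0.997 among the other 5. Among the vehicle arrays it was the one lying farthest from the group's median for 26 of the 44 members (59.1%), close to the 58.8% found over all probe sets. Of 14 measured urothelial and epithelial markers, 11 lay above the 95th percentile of negative control probe sets (log2 value 5.09). Over all probe sets 17115 of 21448 did, so lying above this level does not show that a cell type was present. CDH1, UPK1B and UPK3A, markers of epithelial junctions and differentiated urothelium, did not exceed it in either group. Of 6 leukocyte markers 4 lay above it, but not PTPRC or MS4A1, which mark leukocytes and B cells. The mean log2 value of the leukocyte list was 5.77 to 5.84 on ox-LDL arrays and 5.86 to 6.10 on vehicle arrays. For 6 fibroblast markers, of which LUM alone was not above that level, it was 5.90 to 5.96 on ox-LDL arrays and 5.99 to 6.42 on vehicle arrays. For 4 endothelial markers, of which TEK alone was not above it, it was 5.67 to 5.77 on ox-LDL arrays and 5.66 to 6.18 on vehicle arrays. The list means of the leukocyte and fibroblast markers did not overlap between groups, the former only narrowly (5.84 against 5.86). Gene by gene, 1 of 6 leukocyte, 3 of 6 fibroblast and 1 of 4 endothelial markers did not overlap, against 36.8% of all probe sets. None of the 16 genes in these 3 lists passed the limma test, 3 had an unadjusted p under 0.05, and their part in the results below was not tested.

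With ox-LDL, SLC25A37, a mitochondrial iron importer, fell and SLC25A10, the dicarboxylate carrier, rose, while the other 42 members did not pass the test. A member passed when its Benjamini-Hochberg adjusted p from limma, taken over all 21448 probe sets, was under 0.05. The 2 members that passed were 4.55% of the family, against 6.77% of all probe sets (3.48% higher and 3.29% lower), so the family held no more calls than the array as a whole. Its median log2 difference, ox-LDL minus vehicle, was 0.06, against -0.03 over all probe sets, and 28 of 44 differences (63.6%) lay above 0, against 44.9%. Among probe sets above the median level, which held 32 of the members, the median was 0.06 for those members and 0.045 over all such probe sets, so at that brightness the 2 medians lay close together. At an unadjusted p under 0.05 stood 10 members (22.7%), against 26.1% of all probe sets, the share against which such counts in the groups below are to be read. The median size of a difference, whatever its sign, was 0.13 in the family and 0.16 over all probe sets. All 3 ox-LDL arrays lay above all 3 vehicle arrays for 10 members, against a background of 19.1% of all probe sets, and below them for 4, against 17.7%. Together these were 31.8% of the family and 36.8% of all probe sets. SLC25A31, SLC25A27 and SLC25A48-AS1 lay at or below the negative control level in both groups, and the other 41 above it in at least 1. The extremes were SLC25A13, at 0.60, and SLC25A37, at -0.67, and 16 members differed by less than 0.1 on the log2 scale.

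**Figure D1:**
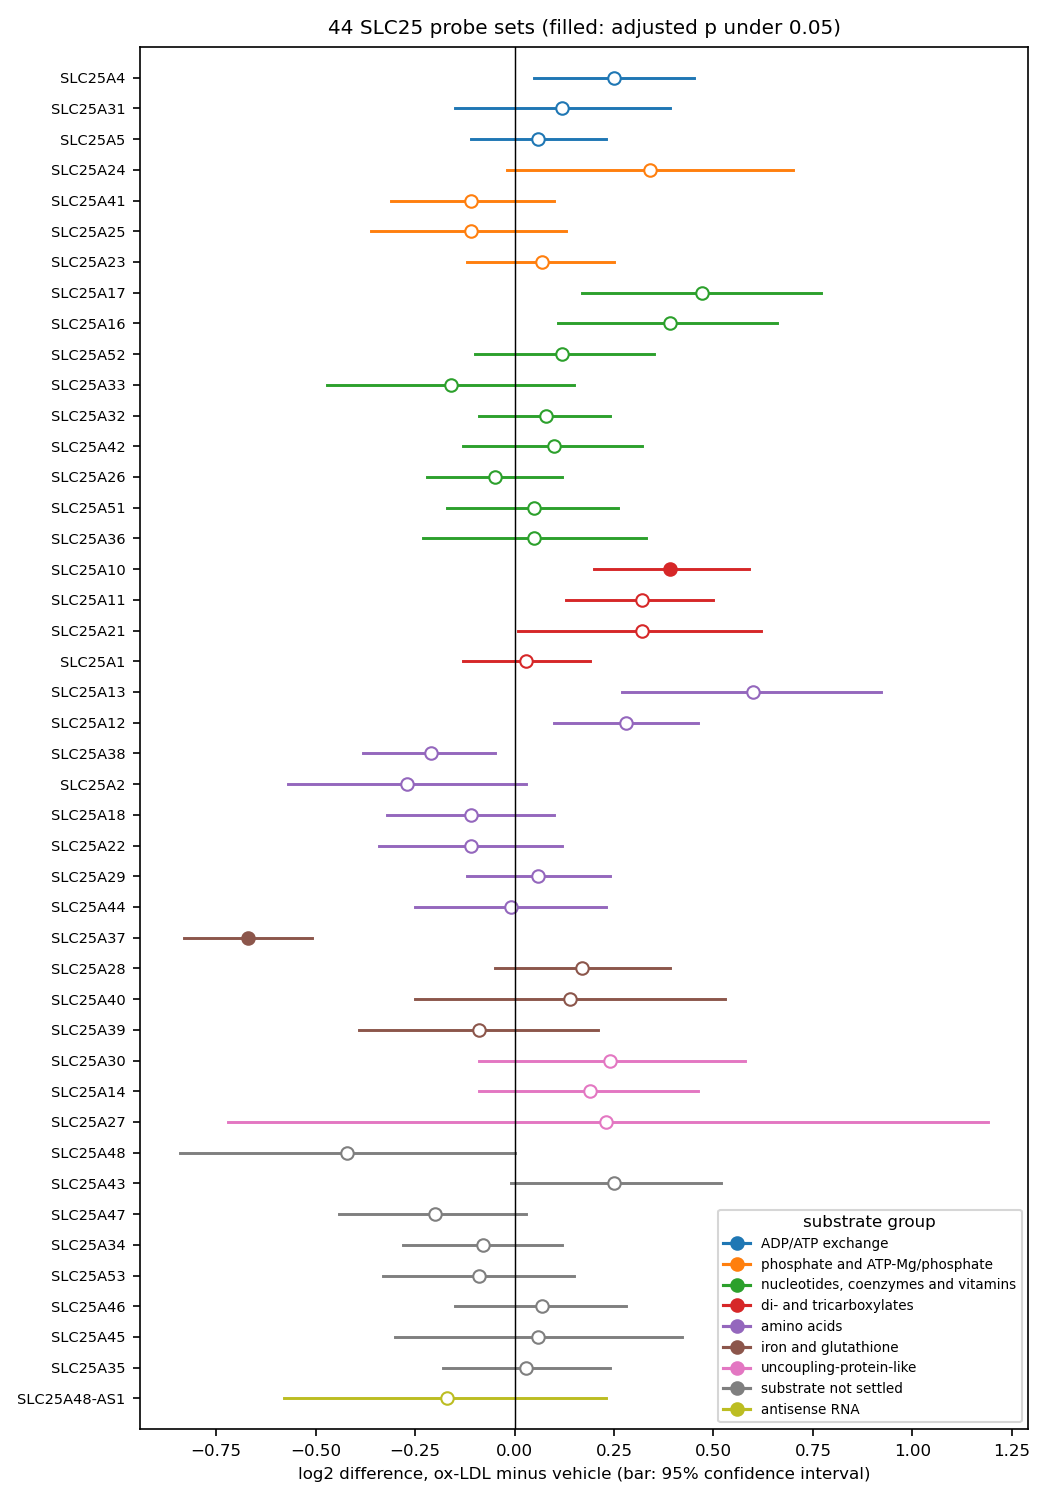
Log2 difference (ox-LDL minus vehicle, horizontal axis) of each of the 44 members, ordered by substrate group and then by p, with 95% confidence intervals from limma. SLC25A37, at -0.67, and SLC25A10, at 0.39, are the filled points that passed; the interval of SLC25A27 is the widest, from -0.72 to 1.19.

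The iron and glutathione carriers held the member with the smallest p, and 1 of the 4 measured had an unadjusted p under 0.05 in limma. SLC25A37 encodes mitoferrin 1, which brings iron into the matrix for iron-sulphur clusters and haem and is best known from developing red blood cells. Its log2 values were 8.14, 8.20 and 8.12 on the ox-LDL arrays, against 8.86, 8.81 and 8.80 on the vehicle arrays. The arrays of each group lay close together, and every ox-LDL array was well below every vehicle array. The gene fell by 0.67 on the log2 scale, a 1.59-fold decrease (SE 0.07, 95% confidence interval -0.83 to -0.51, limma adjusted p = 0.00359). This was the 1 member to meet the study's own selection too, which asks for a p of no more than 0.001 together with a 1.5-fold change and took 2.31% of all probe sets. It passed without any 1 array, with differences of -0.70 to -0.65 and adjusted p of 0.00348 to 0.0348.

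Its close relative SLC25A28, mitoferrin 2, the iron importer of most non-erythroid cells, had log2 values of 8.17, 8.30 and 8.13 with ox-LDL, against 8.14, 7.90 and 8.05 in vehicle. The groups overlapped. The difference was 0.17 (SE 0.09), its 95% confidence interval ran from -0.05 to 0.39, and it missed the threshold (limma adjusted p = 0.279). SLC25A39 and SLC25A40, which are linked to the import of glutathione into mitochondria, differed by -0.09 and 0.14 (adjusted p = 0.659 and 0.602). For both the vehicle arrays alone spanned more than these differences. SLC25A39 had 8.65, 8.44 and 8.92 and SLC25A40 had 8.68, 8.47 and 8.01 on vehicle replicates 1, 2 and 3. Without vehicle replicate 3 both differences changed sign, to 0.03 for SLC25A39 and -0.05 for SLC25A40. Imported iron is supplied to iron-sulphur cluster and haem synthesis. Among 11 measured genes of these pathways, none passed in limma and 4 had an unadjusted p under 0.05 (median log2 difference 0.10). LYRM4, UROD and GLRX5, an assembly factor of the clusters, a haem pathway decarboxylase and a glutaredoxin of cluster transfer, had the smallest p, with differences of 0.56, 0.20 and 0.21 (adjusted p = 0.0699, 0.13 and 0.153). Without vehicle replicate 3, 2 of the 11 were higher past the threshold, against 6.76% of all probe sets in that fit, LYRM4 among them (0.41, adjusted p = 0.0447).

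**Figure D2:**
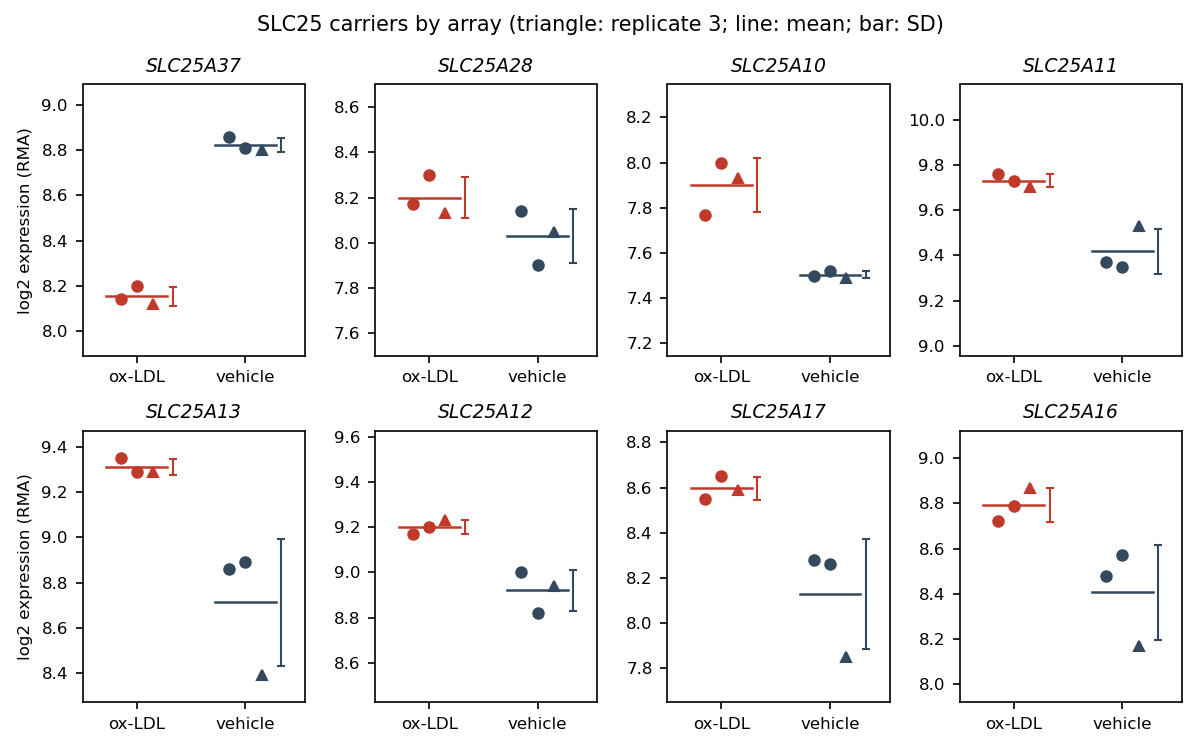
Log2 expression (vertical axis, the same span in each panel) of 8 carriers on the 3 ox-LDL arrays (red, left) and the 3 vehicle arrays (dark blue, right); lines are means, bars SD, and triangles replicate 3; the 8 were chosen after their values were seen. SLC25A37 is lower and SLC25A10 higher on every ox-LDL array, and vehicle replicate 3 lies apart for SLC25A13, SLC25A17 and SLC25A16.

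The di- and tricarboxylate carriers had the highest median of the 8 substrate groups, 0.32 over 4 members, with all 4 differences above 0. Of these 4, 3 had an unadjusted p under 0.05 in limma, against 26.1% of all probe sets. SLC25A10 exchanges malate or succinate for phosphate. Its log2 values were 7.77, 8.0 and 7.93 with ox-LDL, against 7.50, 7.52 and 7.49 in vehicle. The lowest ox-LDL array was above the highest vehicle array, and the vehicle arrays lay close together while the ox-LDL arrays spread more. The gene rose by 0.39 on the log2 scale, or 1.31-fold (SE 0.08, 95% confidence interval 0.20 to 0.59, limma adjusted p = 0.0407). The call was narrow: it held without vehicle replicate 3 (adjusted p = 0.039) and was lost without any other 1 array (adjusted p = 0.0722 to 0.167), with differences of 0.34 to 0.46.

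SLC25A11, which exchanges oxoglutarate for malate in the malate-aspartate shuttle, had log2 values of 9.76, 9.73 and 9.70 with ox-LDL, against 9.37, 9.35 and 9.53 in vehicle. The groups did not overlap, and vehicle replicate 3 was the vehicle array nearest to the ox-LDL arrays. The difference of 0.32 (SE 0.08) missed the threshold (limma adjusted p = 0.0599) and passed without that array (0.37, adjusted p = 0.0144). SLC25A21, a carrier of oxoadipate and related acids, had 6.82, 6.67 and 6.79 with ox-LDL and 6.72, 6.34 and 6.27 in vehicle, where vehicle replicate 1 reached into the ox-LDL range. Its difference was 0.32 (SE 0.13, adjusted p = 0.179). SLC25A1, the citrate exporter that feeds fatty acid and sterol synthesis, had 9.66, 9.69 and 9.68 with ox-LDL and 9.59, 9.68 and 9.66 in vehicle. Its difference was 0.03, with a 95% confidence interval of -0.13 to 0.19 and adjusted p = 0.766.

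Among 8 measured amino acid carriers none passed in limma, and 3 had an unadjusted p under 0.05 (median log2 difference -0.06). The largest difference belonged to SLC25A13, known as citrin, which exports aspartate in exchange for glutamate and a proton in the malate-aspartate shuttle. Its log2 values were 9.35, 9.29 and 9.29 with ox-LDL, against 8.86, 8.89 and 8.39 in vehicle. All ox-LDL arrays were above all vehicle arrays, and vehicle replicate 3 lay well below the other vehicle arrays. The difference of 0.60, or 1.51-fold (SE 0.14, 95% confidence interval 0.27 to 0.92), missed the threshold (limma adjusted p = 0.0522). Without vehicle replicate 3 the difference was smaller, 0.44, and passed (adjusted p = 0.00999). It also passed after a second quantile normalization (0.54, adjusted p = 0.0448) and cyclic loess (0.54, adjusted p = 0.0446). In fits that called a larger share of all probe sets it passed too. These were fits above the negative controls (adjusted p = 0.0401) or the median level (0.022), with an intensity trend and robust fit (0.015), and with array weights (0.00738). It did not pass with equal array medians (adjusted p = 0.0549), the replicate block (0.0846) or the ordinary t statistic (0.141). Nor did it pass whenever 1 of the other 5 arrays was left out (0.0698 to 0.178).

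SLC25A12, or aralar, the relative of citrin with the same exchange, had 9.17, 9.20 and 9.23 with ox-LDL, against 9.0, 8.82 and 8.94 in vehicle. The groups did not overlap, and the difference was 0.28 (SE 0.08, adjusted p = 0.0782, or 0.0566 without vehicle replicate 3). SLC25A38, which imports glycine for haem synthesis, had 10.01, 9.97 and 9.93 with ox-LDL, against 10.12, 10.20 and 10.22 in vehicle. Here all ox-LDL arrays lay below the vehicle arrays, with a difference of -0.21 (SE 0.07, adjusted p = 0.12). SLC25A2, an ornithine carrier, had a difference of -0.27, or -0.13 without vehicle replicate 3. The glutamate carriers SLC25A18 and SLC25A22, SLC25A29 for basic amino acids and SLC25A44 for branched-chain amino acids had differences between -0.11 and 0.06.

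Of 9 measured enzymes of malate, aspartate, citrate and glutamate metabolism, GOT1 fell and 8 did not pass (median log2 difference 0.12). Over all probe sets 3.29% were called lower. At an unadjusted p under 0.05 in limma stood 3 of the 9, against 26.1% of all probe sets. GOT1, the cytosolic aspartate aminotransferase of the malate-aspartate shuttle, had log2 values of 11.13, 11.17 and 11.12 with ox-LDL, against 11.73, 11.68 and 11.66 in vehicle. It fell by 0.55 (SE 0.07, limma adjusted p = 0.00688). Its call did not hold without ox-LDL replicate 1 or 3, with adjusted p up to 0.0535. GOT2, the mitochondrial form of the same enzyme, had 11.34, 11.34 and 11.33 with ox-LDL and 11.05, 11.10 and 10.96 in vehicle. All its ox-LDL arrays were higher, with a difference of 0.30 that did not pass (adjusted p = 0.0574, or 0.0364 without vehicle replicate 3). CS, citrate synthase, differed by 0.19 (adjusted p = 0.146).

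Promoters of SLC25A11 and SLC25A13 are shown because both genes came near the threshold, a choice made after their values were seen. Each window runs from 250 bases before to 50 after a RefSeq transcription start (build GRCh38.p14), and none is shown for the members that passed. Each was searched on both strands for CACGTG, the E-box bound by MYC and related factors, for TGATGNAA, a form of the composite element bound by ATF4 dimers, and for the NRF1 motif. Matches are in capitals, and no matches overlapped in these windows. The SLC25A11 window lies at chr17:4939997-4940296 on the minus strand and that of SLC25A13 at chr7:96322049-96322348 on the minus strand.
SLC25A11: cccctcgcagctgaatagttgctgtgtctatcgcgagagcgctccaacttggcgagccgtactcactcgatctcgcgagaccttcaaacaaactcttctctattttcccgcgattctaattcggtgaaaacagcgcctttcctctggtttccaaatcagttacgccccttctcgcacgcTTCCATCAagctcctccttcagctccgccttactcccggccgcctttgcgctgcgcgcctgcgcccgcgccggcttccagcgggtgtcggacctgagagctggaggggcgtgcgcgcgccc
SLC25A13: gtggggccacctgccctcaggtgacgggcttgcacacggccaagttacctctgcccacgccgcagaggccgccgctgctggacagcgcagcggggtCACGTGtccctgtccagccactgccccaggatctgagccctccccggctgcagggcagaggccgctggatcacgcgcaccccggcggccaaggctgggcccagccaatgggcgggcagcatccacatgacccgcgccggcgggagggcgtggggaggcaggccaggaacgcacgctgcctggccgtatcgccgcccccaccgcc
SLC25A11 held the ATF4-type element on its reverse strand, and SLC25A13 held an E-box. Over the 36 carriers with an entry in the promoter table, using the first start listed for each gene, a rule also chosen after values were seen, 7 held CACGTG (19.4%), against 7.43% of 27305 promoters of all genes. TGATGNAA was present in 1 (2.78%, against 3.67%) and the NRF1 motif in 2 (5.56%, against 2.94%). The carrier windows were richer in G and C, with a median of 65.3%, against 58.3%. The 7 carriers with an E-box were SLC25A13, SLC25A31, SLC25A33, SLC25A36, SLC25A38, SLC25A46 and SLC25A51, and none of them passed the test. Since only 2 members passed in the whole family, this cannot show whether an E-box goes with a change, which was not tested.

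The carriers of nucleotides, coenzymes and vitamins had a median log2 difference of 0.08 over 9 measured members, and none passed in limma, with 2 at an unadjusted p under 0.05. SLC25A17, which carries coenzyme A and nucleotide cofactors and sits in the peroxisomal membrane rather than in mitochondria, had log2 values of 8.55, 8.65 and 8.59 with ox-LDL, against 8.28, 8.26 and 7.85 in vehicle. Its groups did not overlap, and the difference was 0.47 (SE 0.13, adjusted p = 0.0778). Vehicle replicate 3 was the lowest array, and without it the difference was 0.32 and passed (adjusted p = 0.0244). SLC25A16, linked to mitochondrial coenzyme A, had 8.72, 8.79 and 8.87 with ox-LDL, against 8.48, 8.57 and 8.17 in vehicle. Again the groups did not overlap and vehicle replicate 3 was lowest, with a difference of 0.39 (SE 0.12, adjusted p = 0.1), or 0.27 without that array (adjusted p = 0.0642). SLC25A42, another coenzyme A carrier, differed by 0.10.

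SLC25A51, the importer of NAD+, and its nearly identical relative SLC25A52 differed by 0.05 and 0.12 (adjusted p = 0.765 and 0.425), and since their probes may read each other's transcripts the values are uncertain. The pyrimidine nucleotide carriers SLC25A33 and SLC25A36 differed by -0.16 and 0.05, and SLC25A26, which imports S-adenosylmethionine, by -0.05. SLC25A32, the mitochondrial folate carrier, had 10.82, 10.84 and 10.82 with ox-LDL and 10.82, 10.73 and 10.70 in vehicle. Its difference was 0.08 (SE 0.07, 95% confidence interval -0.09 to 0.24, adjusted p = 0.487). The lowest ox-LDL array and vehicle replicate 1 were equal to 2 decimals. At full precision all ox-LDL arrays lay above all vehicle arrays, so SLC25A32 is among the 10 members counted that way.

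The mitochondrial enzymes that use folate and glycine changed in both directions. Of 9 measured, MTHFD2 and SHMT2 fell, GCSH rose and 6 did not pass (median log2 difference -0.28). Over all probe sets 3.29% were called lower and 3.48% higher. At an unadjusted p under 0.05 in limma stood 5 of the 9, against 26.1% of all probe sets. MTHFD2, a dehydrogenase of mitochondrial one-carbon units, had log2 values of 10.82, 10.83 and 10.85 with ox-LDL, against 11.54, 11.46 and 11.55 in vehicle, and fell by 0.68 (SE 0.07, limma adjusted p = 0.00347). It passed without any 1 array (adjusted p = 0.00363 to 0.0339). SHMT2, which turns serine into glycine in the matrix, had 11.32, 11.40 and 11.38 with ox-LDL, against 11.88, 11.89 and 11.91 in vehicle, and fell by 0.53 (adjusted p = 0.00775). GCSH, the lipoyl carrier of the glycine cleavage system, had 9.93, 10.03 and 10.00 with ox-LDL, against 9.49, 9.66 and 9.37 in vehicle, and rose by 0.48 (adjusted p = 0.0309). SHMT2 missed the threshold whenever 1 ox-LDL array was left out, and GCSH did so then and without vehicle replicate 1.

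The ADP/ATP carriers, which bring ADP in and send ATP out, had 3 measured members and none passed in limma, with 1 at an unadjusted p under 0.05. SLC25A4, the form typical of heart and muscle, had log2 values of 10.22, 10.23 and 10.23 with ox-LDL, against 10.01, 9.84 and 10.08 in vehicle. The ox-LDL arrays were almost equal and all above the vehicle arrays, with a difference of 0.25 (SE 0.08, adjusted p = 0.12, or 0.0434 without vehicle replicate 3, where the difference was 0.30). SLC25A5, the form typical of proliferating cells, had 11.91, 11.95 and 11.95 with ox-LDL and 11.84, 11.84 and 11.96 in vehicle. These overlapped, and the difference of 0.06 had a 95% confidence interval of -0.11 to 0.23 (adjusted p = 0.605). The members of this group are close in sequence, so their probes may share transcripts. SLC25A31, a form of the testis, was at or below the negative control level in both groups, at 3.91 ± 0.20 with ox-LDL and 3.79 ± 0.08 in vehicle (SD, n = 3 each).

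Of 7 measured enzymes of adenine nucleotide and phosphate metabolism, AK4 rose and 6 did not pass (median log2 difference 0.14). Over all probe sets 3.48% were called higher. At an unadjusted p under 0.05 in limma stood 2 of the 7, against 26.1% of all probe sets. AK4, an adenylate kinase of the mitochondrial matrix, had 9.18, 9.05 and 9.12 with ox-LDL, against 8.63, 8.45 and 8.03 in vehicle, and rose by 0.74 (SE 0.15, limma adjusted p = 0.0374). Vehicle replicate 3 was its lowest array, and without it the difference was 0.57 (adjusted p = 0.0118). It missed the threshold without vehicle replicate 2 and whenever 1 ox-LDL array was left out (adjusted p up to 0.146). AK3 and HK2, another matrix adenylate kinase and a hexokinase that binds mitochondria, differed by 0.29 and 0.14 (adjusted p = 0.139 and 0.351).

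Of the 4 measured carriers that exchange ATP-Mg for phosphate, which are regulated by calcium, none passed in limma and 0 had an unadjusted p under 0.05 (median log2 difference -0.02). SLC25A24 had log2 values of 9.48, 9.41 and 9.59 with ox-LDL, against 9.30, 9.35 and 8.81 in vehicle. The groups did not overlap, but vehicle replicate 3 made up much of the difference of 0.34 (SE 0.15, adjusted p = 0.211), which was 0.17 without it. SLC25A41, SLC25A25 and SLC25A23 differed by -0.11, -0.11 and 0.07.

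The relatives of the uncoupling proteins numbered 3 and none passed in limma, also at an unadjusted p under 0.05 (median 0.23). SLC25A30 and SLC25A14 differed by 0.24 and 0.19 (adjusted p = 0.313 and 0.335), or 0.09 and 0.08 without vehicle replicate 3. SLC25A27 had 5.16, 4.61 and 5.38 with ox-LDL and 5.35, 5.22 and 3.88 in vehicle, the widest spread of any member. Its difference of 0.23 changed sign without vehicle replicate 3, to -0.24. Of 8 measured carriers whose substrates are not settled, none passed in limma, also at an unadjusted p under 0.05 (median -0.02). SLC25A48 had 6.19, 6.37 and 5.86 with ox-LDL and 6.45, 6.35 and 6.87 in vehicle, with a difference of -0.42 (SE 0.18, adjusted p = 0.194), or -0.26 without vehicle replicate 3. SLC25A43 and SLC25A47 differed by 0.25 and -0.20 (adjusted p = 0.208 and 0.247), and with 1 array left out by 0.14 to 0.33 and by -0.26 to -0.12. SLC25A34, SLC25A35, SLC25A45, SLC25A46, an outer membrane protein of mitochondrial shape, and SLC25A53 had differences between -0.09 and 0.07. The antisense RNA SLC25A48-AS1 was at or below the negative control level, at 3.75 ± 0.35 with ox-LDL and 3.92 ± 0.06 in vehicle (SD, n = 3 each).

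**Figure D3:**
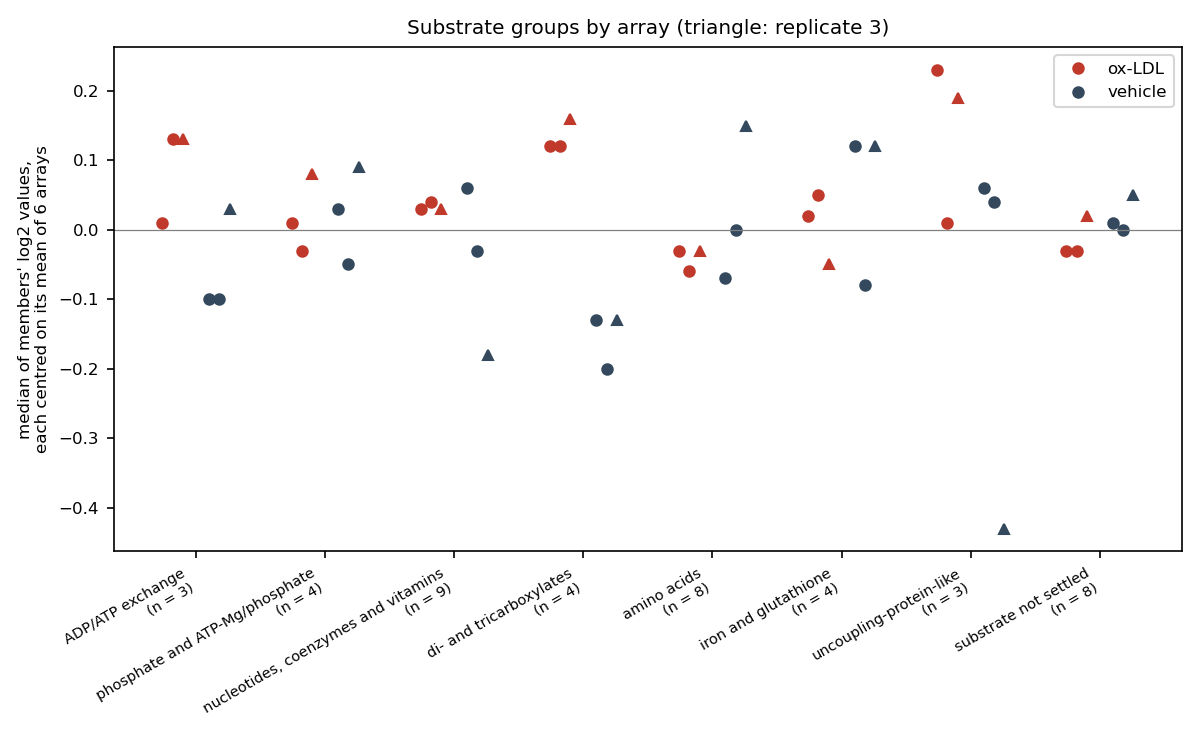
Median over the members of each substrate group of log2 values, each member centred on its mean over 6 arrays (vertical axis), for the ox-LDL arrays (red, left) and the vehicle arrays (dark blue, right); triangles are replicate 3. The di- and tricarboxylate carriers lie at 0.12 to 0.16 on the ox-LDL arrays and at -0.20 to -0.13 on the vehicle arrays, and vehicle replicate 3 lies lowest, at -0.43, for the uncoupling-protein-like carriers.

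Between substrate groups the medians ran from -0.06 for the amino acid carriers to 0.32 for the di- and tricarboxylate carriers. With each member centred on its own mean, the median of the di- and tricarboxylate carriers was 0.12, 0.12 and 0.16 on the ox-LDL arrays, against -0.13, -0.20 and -0.13 on the vehicle arrays, with no overlap. The nucleotide, coenzyme and vitamin carriers were at 0.03, 0.04 and 0.03 with ox-LDL and at 0.06, -0.03 and -0.18 in vehicle. For the amino acid carriers the values were -0.03, -0.06 and -0.03 with ox-LDL, against -0.07, 0.00 and 0.15 in vehicle. Both of these groups overlapped between ox-LDL and vehicle, with vehicle replicate 3 at the end of the range. No test was made of a difference between substrate groups, and groups of 3 to 9 members give only a description.

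**Figure D4:**
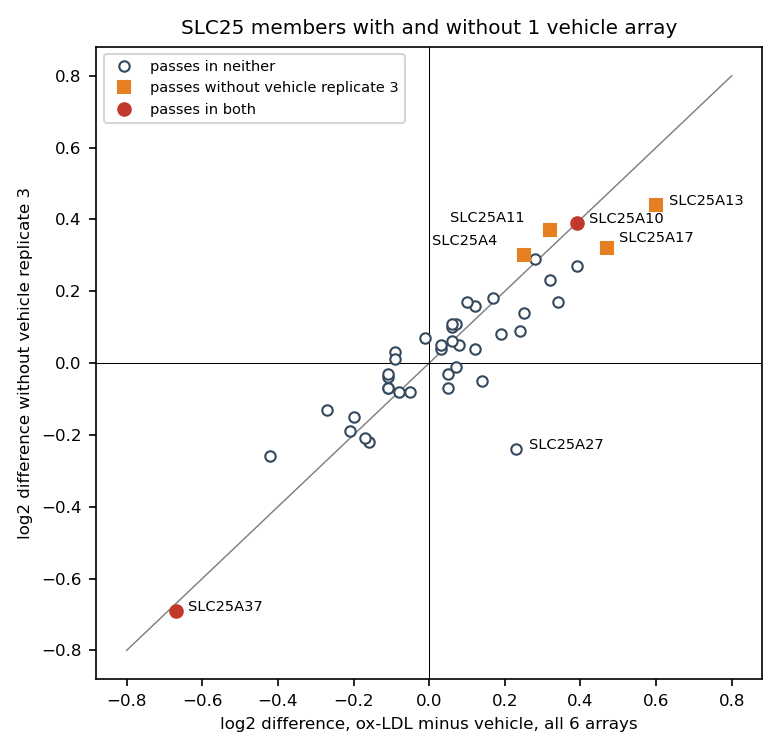
Log2 difference (ox-LDL minus vehicle) of each member without vehicle replicate 3 (vertical axis) against that with all 6 arrays (horizontal axis), with the line of equality. SLC25A37 and SLC25A10 pass in both, and SLC25A4, SLC25A11, SLC25A13 and SLC25A17 pass without that array.

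Without vehicle replicate 3, 6 members passed, SLC25A10, SLC25A11, SLC25A13, SLC25A17 and SLC25A4 higher and SLC25A37 lower. That was 13.6% of the family, against 12.4% of all probe sets in the same fit (6.76% higher and 5.69% lower), so the share of calls was again near that of the array. The difference of SLC25A13 moved to 0.44 and that of SLC25A17 to 0.32, while those of SLC25A11 and SLC25A4 moved to 0.37 and 0.30. The median of the family was then 0.04, against -0.01 over all probe sets. The sign changed for 8 members, SLC25A51, SLC25A36, SLC25A44, SLC25A40, SLC25A39, SLC25A27, SLC25A53 and SLC25A46, none of which differed by more than 0.23 with all arrays. Without any 1 other array SLC25A37 was the 1 member that passed.

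Carriers reach the inner membrane through a dedicated import route, in which the TOM complex passes them to small TIM chaperones and the TIM22 complex. Of 15 measured genes of this route, TOMM5 and TIMM8A rose and 13 did not pass (median log2 difference 0.18). Over all probe sets 3.48% were called higher. At an unadjusted p under 0.05 in limma stood 7 of the 15, against 26.1% of all probe sets. All ox-LDL arrays lay above all vehicle arrays for 8 of the 15, against 19.1%, and below them for 1, against 17.7%. TOMM5, a small subunit of the TOM complex, had log2 values of 11.03, 11.00 and 11.01 with ox-LDL, against 10.56, 10.55 and 10.36 in vehicle, and rose by 0.52 (SE 0.08, limma adjusted p = 0.0142). TIMM8A, a small chaperone of the intermembrane space, had 9.10, 8.95 and 8.88 with ox-LDL, against 8.44, 8.46 and 8.50 in vehicle, and rose by 0.51 (SE 0.08, adjusted p = 0.0166). TOMM40, the channel of the complex, differed by 0.29 (adjusted p = 0.0509, or 0.0324 without vehicle replicate 3). Both genes missed the threshold whenever 1 ox-LDL array was left out, and TIMM8A also without vehicle replicate 1 or 2. Without vehicle replicate 3, 5 of the 15 were higher and 2 lower past the threshold, against 6.76% and 5.69% of all probe sets.

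The symbol rule leaves out relatives that carry other names, such as the uncoupling proteins UCP1, UCP2 and UCP3 and the carrier-like proteins MTCH1 and MTCH2. Of 19 measured genes in a list of these and other mitochondrial membrane transporters, SFXN2 and UCP2 rose and 17 did not pass (median log2 difference 0.18). Over all probe sets 3.48% were called higher. At an unadjusted p under 0.05 in limma stood 11 of the 19, against 26.1% of all probe sets. All ox-LDL arrays lay above all vehicle arrays for 13 of the 19, against 19.1%, and below them for 0, against 17.7%. SFXN2, a sideroflexin, had 9.37, 9.30 and 9.37 with ox-LDL, against 8.90, 8.82 and 8.96 in vehicle, and rose by 0.45 (SE 0.07, limma adjusted p = 0.017). UCP2, an uncoupling protein that belongs to the SLC25 family but is not among the 44 members, had 9.06, 9.08 and 9.09 with ox-LDL, against 8.70, 8.76 and 8.69 in vehicle, and rose by 0.36 (SE 0.07, adjusted p = 0.0265). Both calls held without vehicle replicate 3 and were lost without any other 1 array. ABCB10, an inner membrane ABC transporter, differed by 0.46 (adjusted p = 0.0503). Of 13 regulators of mitochondrial biogenesis none passed in limma, and 2 had an unadjusted p under 0.05 (median 0.15). TWNK, POLG2 and TFAM, which replicate and package mitochondrial DNA, differed by 0.25, 0.22 and 0.15 (adjusted p = 0.111, 0.173 and 0.209). TWNK passed without vehicle replicate 3 (0.30, adjusted p = 0.0389). Over the 7 companion lists 6 of 83 genes rose (7.23%) and 3 fell (3.61%), against 3.48% and 3.29% of all probe sets. All of these genes but UCP1 lay above the negative control level, whereas that background includes dim probe sets. In a fit of probe sets above that level, 1094 of 17115 were higher and 872 lower. Of the companion genes 11 were higher and 3 lower in that fit, and the lists were not tested against this background.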

How the data were processed

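Total RNA of 6 samples was labelled (500 ng each, WT PLUS kit) and hybridised to single-colour Affymetrix arrays, per the labels' protocols. The values as deposited are on a log2 scale and come from RMA, a robust multi-array average, according to the submitters' processing notes. The sources used here give neither RMA's settings nor a build or scan batch. Since RMA equalises arrays, a shift of total RNA in the cells would be invisible, and differences of dim genes are compressed.

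Of 24350 probe sets, 2902 controls were left out, and the 21448 others were fitted in 1 limma model of ox-LDL minus vehicle (limma 3.58.1 under R 4.3.3), plotted in matplotlib 3.10.9, with Benjamini-Hochberg adjustment over all of them and a threshold of 0.05. The platform table named 17709 probe sets. Groups follow the sample titles. Errors are SD over arrays or limma's standard error. The script was tested on simulated data. Array data have no read depth, and precision depends on how many arrays there are and on how far each probe set spreads between them. The negative control level is the 95th percentile of the mean values of 612 negative control probe sets; it replaced a percentile over single values after the data were seen, and the members below it did not change.

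The members, substrate groups and companion lists were chosen with earlier results of these data known. Each gene is read from the probe set with the highest mean. Values per array are given for members that passed; the 3 genes with the smallest p in each substrate group and companion list, the 3 members nearest the threshold and members at or below the negative control level are named by rule. The remaining members, and further values per array, were added after values were seen. The 18 alternatives covered array scaling, dim probe sets, the variance model, thresholds, a replicate block, several probe sets per gene and leaving out each array. No set was tested as a whole. Promoters came from the RefSeq table of build GRCh38.p14, and protein sequences were not used here. Some items, among them 1 promoter sequence, are not reported here.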

Additional observations from a re-analysis of the deposited data

How the results depend on the processing

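SLC25A37 was called lower and the sign of SLC25A10 held under all 18 alternatives that gave a value. The count of members higher, 1 in the analysis above, was 2 with equal array medians, cyclic loess or quantile normalization done again, 3 among probe sets above the negative controls, 7 among probe sets above the median level, 6 with an intensity trend and robust fit, 7 with array weights, and 0 with an ordinary t statistic, an adjusted p under 0.01 or the design text's selection. The count lower, 1, was 2 above the median level, with the trend and with array weights, where SLC25A38 was the added gene. With 1 array left out, 0 to 5 members were higher and 1 lower. The family's median was 0.091 with equal array medians, 0.034 after cyclic loess and 0.036 with array weights. In the companion lists the 6 genes higher became 17 above the median level, 11 above the negative controls, 21 with the trend, 20 with array weights, 0 with an adjusted p under 0.01 or the design text's selection, and 0 to 15 with 1 array left out. The 3 lower became 5 with array weights, 1 by the design text's selection and 1 to 6 with 1 array left out. Calls over all probe sets rose in several of the same fits, and the counts are to be read against them. Above the median level 24.3% were called (1571 of 10724 higher), with 32 members kept. Above the negative controls it was 11.5% (1094 of 17115 higher), with 41 members kept. With the trend it was 12.4% (1608 of 21448 higher), and with array weights 18.5% (2140 higher).

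Over all probe sets the 1451 calls became 2649 with the trend, 3962 with array weights, 550 with the replicate block, 382 at an adjusted p under 0.01, 496 by the design text's selection, 2670 without vehicle replicate 3, and 305 to 806 without any 1 other array. Among 10724 probe sets above the median level 2608 were called. With the replicate number as a block 0 members were higher (SLC25A10 at adjusted p = 0.0995) and 1 was lower, and 0 companion genes were higher. Arrays of the same number correlated at -0.01, 0.03 and 0.02 in their deviations from group means. Of 3 ox-LDL arrays 1, and of 3 vehicle arrays 1, correlated best with its own number. No effect shared by arrays of the same number was thus seen, but these correlations cannot show whether the samples were paired by design. With 1 array left out, 11 of the 44 members turned sign under at least 1 choice, none of them called: SLC25A40 (-0.05 to 0.28), SLC25A27 (-0.24 to 0.5; -0.16 with array weights), SLC25A48-AS1 (-0.33 to 0.02), SLC25A45, SLC25A35, SLC25A51, SLC25A36, SLC25A44, SLC25A39, SLC25A53 and SLC25A46. The cause of these shifts was not tested. The number of arrays and the compression of dim values limit what small differences can be seen.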

Other observations

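Close relatives were also compared within each array, for 7 pairs chosen after their values were seen. With ox-LDL, the change of SLC25A37 (-0.67) minus that of SLC25A28 (0.17) was -0.84 on the log2 scale (two-sided exact permutation p = 0.1, adjusted p = 0.233 over the 7 pairs). SLC25A13 changed by 0.31 more than SLC25A12 (exact p = 0.2, adjusted p = 0.28). With 3 arrays against 3 the smallest p that this test can give is 0.1, so it cannot pass a threshold of 0.05. The change of SLC25A4 exceeded that of SLC25A5 by 0.19 (exact p = 0.1), and the other 4 pairs differed by -0.23 to 0.00.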
